A study of Mus musculus with 2 samples.

Results

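The transcripts of 10 receptor genes of cytokines and colony stimulating factors were compared between primitive and maturing haematopoietic stem cells (HSC) of mouse bone marrow. The genes are Il6st, Il6ra, Il4ra, Il18r1, Ifngr1, Ifngr2, Csf1r, Csf2ra, Csf2rb and Csf3r. They were read from all probe sets that the array annotation gives to one of these symbols alone, which made 19 of the 20380 probe sets with 1 gene symbol and 10 of 12393 genes. A further probe set is annotated to both Csf2rb and its near-identical copy Csf2rb2, and is described apart. Per the labels neither group was treated: 1 array held primitive HSC and 1 array held maturing HSC, each sorted by flow cytometry following brief culture. The strain, the age of the mice, the sorted phenotypes and any pooling of animals are not stated in the labels. Each array was hybridised with cRNA made from a cloned cDNA library, so a value describes the make-up of that library. With 1 array per group no test could be made, no value has a replicate error, and fewer cells of a type cannot be told apart from less RNA per cell.

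Cytokine receptors of the type I family, to which the IL-6, IL-4, GM-CSF and G-CSF receptors belong, have no kinase of their own and signal through bound JAK kinases and STAT factors. They often combine a ligand-specific alpha chain with a signalling chain shared among several cytokines. The interferon gamma receptor is a type II receptor that also uses JAK kinases, the IL-18 receptor belongs to the IL-1 receptor family and signals through Myd88 and Irak kinases, and the M-CSF receptor is a receptor tyrosine kinase. In bone marrow, these receptors are known for granulocyte and macrophage production and for the response of blood-forming cells to inflammation.

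The sequences before the starts of 3 genes are shown because their ratios or bounds were the highest among the 10 in the setting used here, namely Csf3r toward maturing HSC and Il4ra and Il18r1 toward primitive HSC. They are the 250 bases before the start, 5′ to 3′, from RefSeq on build GRCm38.p6, where 8 of the 10 genes had an entry. Capitals mark matches on either strand to GAGGAA, a core of the sites of the myeloid factor PU.1, or to TTGCNNAA, a form of the C/EBP site. They also mark matches to TTCNNNGAA, a form of the STAT site, and other spacings of it were not searched. No matches overlapped in the windows shown. Il18r1 had 3 listed starts, of which the first and the third are shown.
Csf3r, chr4:126024409-126024658, plus strand: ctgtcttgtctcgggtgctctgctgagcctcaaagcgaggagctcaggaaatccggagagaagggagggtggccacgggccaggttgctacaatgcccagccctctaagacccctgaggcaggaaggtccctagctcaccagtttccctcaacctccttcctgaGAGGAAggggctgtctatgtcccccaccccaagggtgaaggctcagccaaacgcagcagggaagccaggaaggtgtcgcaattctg
Il4ra, chr7:125552021-125552270, plus strand: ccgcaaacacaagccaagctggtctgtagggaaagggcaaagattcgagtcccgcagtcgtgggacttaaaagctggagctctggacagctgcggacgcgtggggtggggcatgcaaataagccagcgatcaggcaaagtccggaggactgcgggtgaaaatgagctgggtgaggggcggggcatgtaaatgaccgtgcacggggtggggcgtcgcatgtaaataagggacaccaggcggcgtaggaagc
Il18r1, start 1, chr1:40465302-40465551, plus strand: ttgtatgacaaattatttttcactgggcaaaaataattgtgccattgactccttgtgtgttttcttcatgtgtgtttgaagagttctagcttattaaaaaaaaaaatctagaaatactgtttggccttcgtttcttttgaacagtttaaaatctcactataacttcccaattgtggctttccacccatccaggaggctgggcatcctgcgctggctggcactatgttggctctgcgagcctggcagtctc
Il18r1, start 3, chr1:40465756-40466005, plus strand: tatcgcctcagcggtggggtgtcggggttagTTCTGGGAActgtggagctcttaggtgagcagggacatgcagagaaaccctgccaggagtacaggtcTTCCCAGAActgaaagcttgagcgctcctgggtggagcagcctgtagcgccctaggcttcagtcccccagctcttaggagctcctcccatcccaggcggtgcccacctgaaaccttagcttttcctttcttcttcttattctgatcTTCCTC

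The Csf3r window held 1 match to GAGGAA, 86 bases before the start. The third Il18r1 window held 2 matches to TTCNNNGAA, 219 and 152 bases before the start, and 1 match to GAGGAA on the reverse strand, 6 bases before the start. These letters were not in the windows of Il4ra and of the first Il18r1 start. Among all 32851 windows of this length, 23.3% held GAGGAA, 9.56% held TTGCNNAA and 7.02% held TTCNNNGAA. Of the windows not shown, that of Il6ra held 1 match to GAGGAA and that of Csf2ra 2, while those of Il6st, Ifngr1 and Ifngr2 held none of the 3 motifs. A match is a description of the letters and was not set against binding of any factor.

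Of the 10 receptor genes, 6 were higher in primitive HSC and 4 in maturing HSC by their brightest probe set, where 4664 and 4188 of all measured genes were. The 4 include Csf1r, whose probe sets disagreed. Il6ra, Ifngr1, Ifngr2 and Csf1r differed by less than 2-fold, and 5 of the 10 values are lower bounds. Csf3r, the G-CSF receptor of granulocyte production, was higher in maturing HSC by at least 5.84-fold. Il4ra was higher in primitive HSC by 3.85-fold and Il18r1 by at least 3.80-fold. Chains of a single receptor went different ways: Ifngr2 and Csf2ra were higher in primitive HSC, and their partners Ifngr1 and Csf2rb in maturing HSC. With scaling to the hybridisation controls in place of a common mean, Il6ra, Ifngr2 and Csf2ra turned toward maturing HSC, while Il6st, Il4ra and Il18r1 remained higher in primitive HSC.

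Values are MAS5 signal intensities on a linear scale. An intensity under 441.0, the median over both arrays, was taken as a floor that carries no order, so a probe set with 1 array under it gives only a bound on the difference and a probe set with both arrays under it was not measured. Of the 19 probe sets, 14 were measured, 9 of them above the floor on both arrays and 5 as bounds, and those 5 had to differ in the direction of their bright array. At 4-fold or more, 1 of the 14 was higher in maturing HSC, where 4.76% of all measured probe sets were, and 0 of the 14 were higher in primitive HSC, against 3.03%. By gene this was 1 of 10 beside 4.69% and 0 of 10 beside 3.45%. At 2-fold, 3 of 10 genes were higher in primitive HSC, beside 15.6% of genes, and 1 of 10 in maturing HSC, beside 17.6%. The median log2 ratio of primitive over maturing was 0.80 over the 10 genes and 0.07 over all 8852 measured genes. It was -0.16 against -0.74 when scaled to the hybridisation controls.

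**Figure D1:**
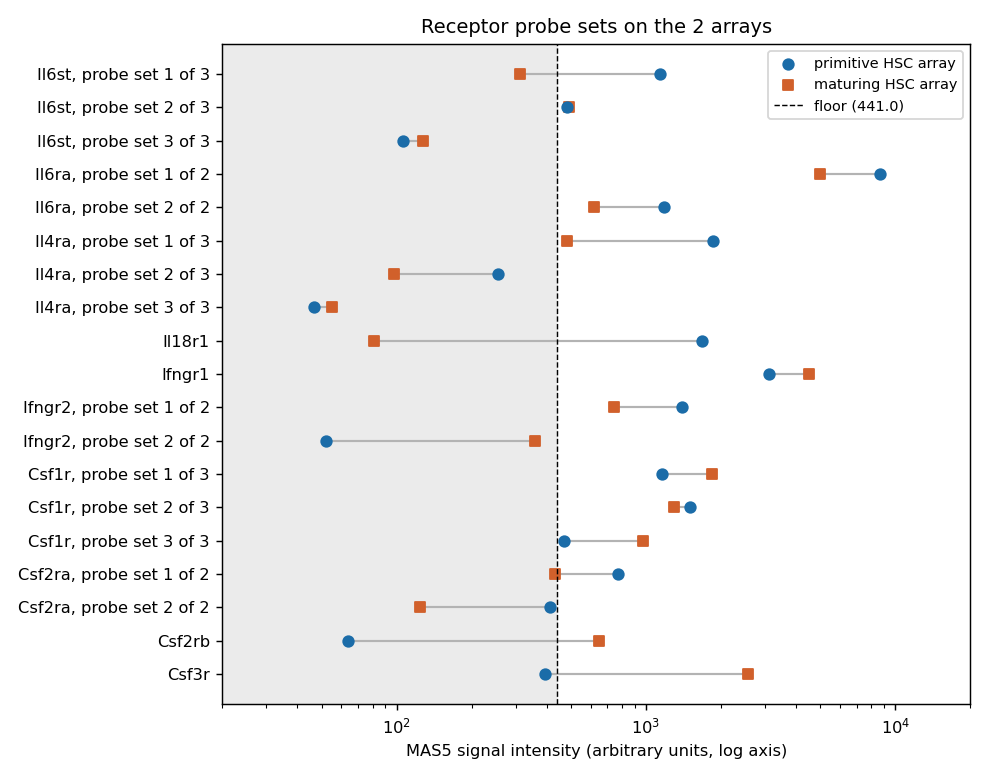
Signal intensity (log axis) of each of the 19 receptor probe sets on the primitive array (circles) and the maturing array (squares), with the floor of 441.0 as a dashed line and the area under it shaded. The pair of points of Csf3r lies with the maturing array to the right (2574.5 against 394.0), and those of Il4ra (first probe set) and Il18r1 with the primitive array to the right.

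The IL-6 receptor consists of the ligand-binding chain Il6ra and the signalling chain gp130, encoded by Il6st and shared with the receptors of LIF, oncostatin M and IL-11. Il6ra read 8657 on the primitive and 5002 on the maturing array with its brighter probe set, a log2 ratio of 0.79. Its other probe set read 1184 and 619.5, a log2 ratio of 0.93. Both Il6ra probe sets were thus higher in primitive HSC by less than 2-fold, and both turned the other way when scaled to the hybridisation controls, to -0.18 and -0.04.

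For Il6st the 3 probe sets gave different pictures. The probe set 1452843_at read 1142 in primitive HSC and 310.8, under the floor, in maturing HSC, a difference of at least 2.59-fold. A second, 1460295_s_at, whose name marks it as able to bind several transcripts, read 479.8 and 491.1, a log2 ratio of -0.03 that was 0.05 after quantile normalization. The third was under the floor on both arrays, at 106.3 and 127.3. The difference of Il6st therefore rests on 1 of its 3 probe sets, and with the floor at percentile 75 its bound shrank from 1.37 to 0.15.

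Il4ra encodes the alpha chain of the IL-4 receptor, which also serves IL-13. Its probe set 1421034_a_at read 1849 in primitive HSC and 480.2 in maturing HSC, a log2 ratio of 1.94. The maturing value lay just above the floor. The ratio was 2.08 after quantile normalization, reached the 4-fold line after lowess, and was 0.97 when scaled to the hybridisation controls. The other 2 probe sets were under the floor on both arrays, at 255.8 and 97.4 and at 46.5 and 54.8 in primitive and maturing HSC. Only 1 of 3 Il4ra probe sets thus gave a measurement.

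Il18r1, the binding chain of the IL-18 receptor, had a single probe set. It read 1678 on the primitive array and 80.9, well under the floor, on the maturing array. The bound of 3.80-fold is set by the floor: at percentile 25 the log2 bound was 3.58 in place of 1.93, and at percentile 75 it was 0.71. Il18rap, the accessory chain that completes this receptor, read 736.5 and 482.2, a log2 ratio of 0.61 toward primitive HSC that was -0.36 when scaled to the hybridisation controls. Its ligand Il18 went the other way, with 664.4 in primitive and 1822 in maturing HSC (log2 ratio -1.46).

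Interferon gamma binds Ifngr1, and Ifngr2 is the chain needed for signalling. Ifngr1 read 3104 in primitive and 4519 in maturing HSC, a log2 ratio of -0.54 toward maturing HSC that kept its sign in all 7 other scaling and floor settings. Ifngr2 read 1394 and 744.5 with one probe set, a log2 ratio of 0.90 toward primitive HSC that became -0.07 when scaled to the hybridisation controls. The second Ifngr2 probe set was under the floor on both arrays, at 51.9 and 358.0. Both chains of this receptor were thus measured in both libraries, each within 2-fold.

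Among the colony stimulating factor receptors, Csf3r was the gene past 4-fold. Its single probe set read 394.0, just under the floor, in primitive HSC and 2574.5 in maturing HSC, a log2 bound of -2.55. The bound stayed past 4-fold under each other scaling, from -2.50 to -3.05, and with the floor at percentile 25 (-2.71), but was -1.33 with the floor at percentile 75.

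Csf1r, the receptor of M-CSF and IL-34, was measured by all of its 3 probe sets, which did not go the same way. The first read 1159 in primitive and 1847 in maturing HSC, a log2 ratio of -0.67. The second read 1498 and 1291, a log2 ratio of 0.21 that was -0.76 when scaled to the hybridisation controls. The third, marked as able to bind several transcripts, read 467.5 and 968.6, a log2 ratio of -1.05. These ratios differ in sign, and probe sets for the same gene had in general an SD of 0.82 on the log2 scale over 1318 genes, so no direction is given for Csf1r.

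GM-CSF binds the alpha chain Csf2ra, and the beta chain Csf2rb, which also serves IL-3 and IL-5, carries the signal. Csf2ra read 772.0 in primitive HSC and 430.7, just under the floor, in maturing HSC, a difference of at least 1.75-fold that became a log2 value of -0.13 when scaled to the hybridisation controls. Its second probe set was under the floor on both arrays, at 410.4 and 123.9. Csf2rb read 64.0, far under the floor, in primitive HSC and 645.5 in maturing HSC, a difference of at least 1.46-fold. With the floor at percentile 25 this bound was -2.20 on the log2 scale, past 4-fold.

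Mice have a second beta chain gene, Csf2rb2, whose product serves IL-3 alone and whose sequence is close enough to Csf2rb for the pair to share signal. The Csf2rb2 probe set read 354.7 in primitive and 536.1 in maturing HSC, a difference of at least 1.22-fold. The probe set annotated to both genes was under the floor on both arrays, at 95.7 and 209.0. Values of Csf2rb and Csf2rb2 are uncertain for this reason.

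Of the 3 receptor genes with more than 1 measured probe set, all probe sets agreed in direction for 1, Il6ra, but not for Il6st or Csf1r. Among all 2764 genes with several measured probe sets, the share that agreed was 55.6%. Il4ra (1.94), with both arrays above the floor, lay just inside the 4-fold threshold. The bound of Il18r1 (1.93) does not tell on which side of it the gene lies.

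**Figure D2:**
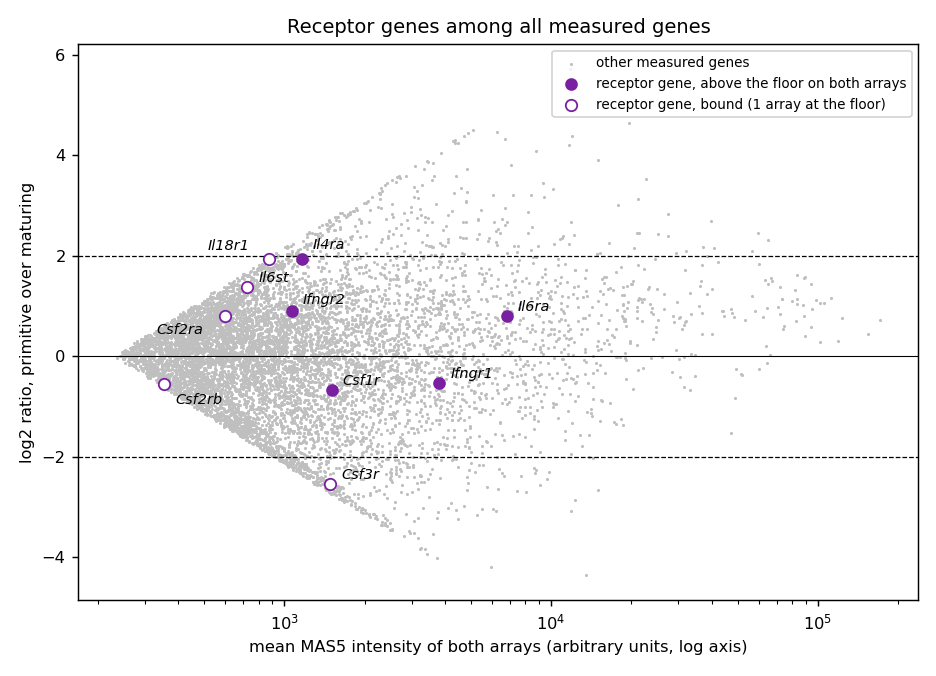
Log2 ratio of primitive over maturing against the mean intensity of both arrays (log axis) for the brightest probe set of each measured gene, with the 10 receptor genes in purple (filled, above the floor on both arrays, and open, bounds) and the 4-fold lines dashed. Csf3r (-2.55) is the only receptor gene past a 4-fold line, and the slanted edges of the grey cloud are the bounds set by the floor.

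The choice of scaling set the direction of several small differences. The hybridisation controls, biotinylated transcripts added to each sample before hybridisation, had a median log2 ratio of 0.97 over 18 probe sets, toward the primitive array. Using them for scaling moved the median of all genes from 0.07 to -0.74, and the direction of 5 of the 14 measured receptor probe sets turned. A further 1, the second Il6st probe set, turned after quantile normalization. The remaining 8, from Il6st (first probe set), Il4ra, Il18r1, Ifngr1, Csf1r (2 probe sets), Csf2rb and Csf3r, kept their direction in each of the 7 settings that measured them.

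**Figure D3:**
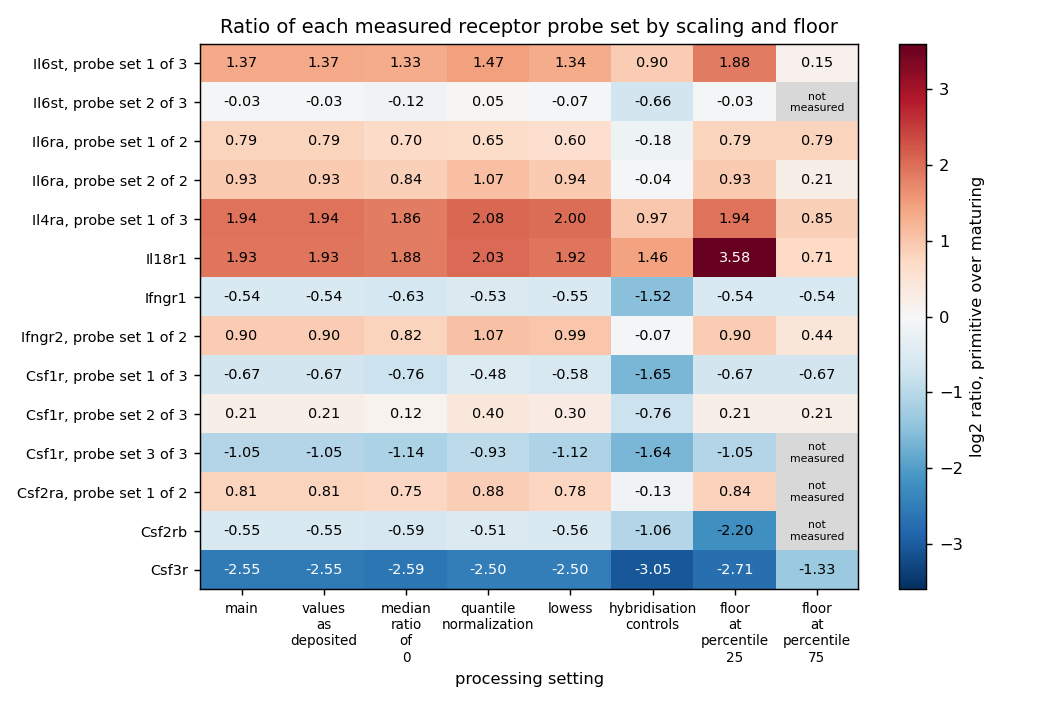
Log2 ratio of primitive over maturing, as number and colour, for the 14 measured receptor probe sets (rows) under the main setting and 7 other scalings and floors (columns), with grey cells where both arrays were under the floor. The column of the hybridisation controls is shifted toward maturing HSC, Csf3r is negative in every column, and Il4ra and Il18r1 are positive in every column.

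Receptor chains that work beside the 10 genes were read from lists of related genes. In the list of common gamma, beta and other short chain receptors, 10 of 12 genes on the array were measured. The values of Il2rb, Il7r, Il9r, Il13ra1, Il21r, Csf2rb2 and Crlf2 were bounds. Of the 10 measured genes, 9 were higher in primitive HSC, where 4664 of all 8852 measured genes were, and 1, Csf2rb2, in maturing HSC. At 4-fold, 2 were higher in primitive HSC, beside 3.45% of all genes, and 0 in maturing HSC, beside 4.69%, and the list median was 0.87 beside 0.07 over all genes, and 0.58 when scaled to the hybridisation controls, where Il2ra, Il13ra2 and Il15ra turned toward maturing HSC. Crlf2, a chain of the receptor of thymic stromal lymphopoietin, read 2734 and 125.2 in primitive and maturing HSC, a difference of at least 6.20-fold. The other past 4-fold was Il7r, at least 6.79-fold, which the naming rule left out because its second probe set stood at -0.40. Il13ra1, a partner of Il4ra, was higher in primitive HSC by at least 2.14-fold, Il9r by at least 2.56-fold and Il21r by at least 2.06-fold. Il3ra and Il5ra, the alpha chains that pair with Csf2rb, were under the floor on both arrays.

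The list of gp130 partners and related chains, which takes in the IL-12 receptor chains Il12rb1 and Il12rb2, showed no common direction. Of 6 genes on the array 4 were measured, 2 higher in each population. Cntfr, the binding chain of the CNTF receptor, was higher in primitive HSC by at least 2.55-fold and Il27ra in maturing HSC by at least 1.83-fold. Osmr had a log2 ratio of 0.53, or -0.45 when scaled to the hybridisation controls, and Il12rb2 a bound of -0.44. Lifr and Il12rb1 were under the floor on both arrays.

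Among receptors and adaptors of the IL-1 and IL-18 family, 5 of 7 measured genes were higher in maturing HSC and the median was -0.52. Of all 8852 measured genes, 4188 were higher in maturing HSC. Of the 4 receptor genes in the list 3 were higher in maturing HSC, and the probe sets of the adaptor genes Irak1 and Traf6 disagreed in direction. The decoy receptor Il1r2 stood at -0.96, the shared accessory chain Il1rap at -0.80 and the inhibitory receptor Sigirr at a bound of -0.52. In this list Il18rap (0.61) and the adaptor Myd88 (0.38) were the members higher in primitive HSC, and both turned when scaled to the hybridisation controls. Among the type II receptors, the class of Ifngr1 and Ifngr2, Ifnar1 (0.30), Il10rb (0.33) and Ifnar2 were measured and were higher in primitive HSC by their brightest probe sets, with 1 Ifnar2 probe set at -0.39. With the hybridisation controls Ifnar1 and Il10rb turned, to -0.67 and -0.64, and the list median went from 0.33 to -0.64.

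All 4 measured growth factor receptors of haematopoiesis were higher in maturing HSC, where 4188 of all 8852 measured genes were, with a median of -0.97. At 4-fold, 1 was higher in maturing HSC, beside 4.69% of all genes, and 0 in primitive HSC, beside 3.45%. Flt3, the receptor of multipotent progenitors, read 220.2 in primitive and 2276 in maturing HSC, at least 5.16-fold apart. The growth hormone receptor Ghr was higher in maturing HSC by at least 2.90-fold, and the stem cell factor receptor Kit (-0.41) and the erythropoietin receptor Epor (-0.29) differed by less than 2-fold. Flt3 and Csf3r were the receptors of these lists past 4-fold toward maturing HSC.

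Ligands were measured for 8 of 13 genes, 7 of them higher in primitive HSC, where 4664 of all 8852 measured genes were. The list median was 0.63. The values of Csf3, Il3, Il4, Il11 and Ifng were bounds. When scaled to the hybridisation controls, the median was -0.10 over 6 genes, as Csf3 and Il3 were then not measured. Ifng, the ligand of Ifngr1 and Ifngr2, read 2084 in primitive HSC and 390.6 in maturing HSC, at least 4.72-fold apart. Il34, a ligand of Csf1r, stood at 0.94, or -0.03 when scaled to the hybridisation controls, and Il11 at a bound of 0.73. The 2 measured probe sets of Csf1, the other ligand of Csf1r, disagreed in direction, at 0.78 and -0.43. Csf2, Il5, Il6, Il13 and Lif were under the floor on both arrays, and Csf3 read 579.6 and 123.2.

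Downstream of these receptors, 9 of 10 JAK and STAT genes were measured, 5 higher in primitive and 4 in maturing HSC, and none was past 4-fold. Stat4, the factor used by the IL-12 receptor, read 6988 and 2265, a log2 ratio of 1.63. The kinase gene Tyk2 stood at -1.31 and Stat5b, which carries GM-CSF and IL-3 signals, at -0.94. Stat2 stood at 0.83, or -0.15 when scaled to the hybridisation controls. Stat6, the factor of IL-4 signalling, stood at -0.14 and -1.38 with its 2 probe sets, where Il4ra was higher in primitive HSC. The probe sets of Jak1, Jak2 and Stat3 disagreed in direction.

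Of 17 measured genes listed as negative regulators, 11 were higher in maturing HSC, where 4188 of all 8852 measured genes were. By 2-fold or more 6 were higher there, beside 17.6% of all genes, and the list median was -0.25. In 2 of the 6, Ptpn2 and Cbl, another probe set went the other way, at 1.05 and 0.56. Ptpn11 encodes the phosphatase Shp2, which is in this list but is not only a negative regulator. It read 1687 in primitive and 5581 in maturing HSC with its brightest probe set, a log2 ratio of -1.73. Its 3 probe sets ranged from -1.73 to -0.35. Pias1 stood at -1.42, Pias2 at a bound of -1.22 and Socs5 at -1.06. Socs3, the feedback inhibitor of gp130 and G-CSF receptor signalling, had a bound of -0.72 toward maturing HSC.

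Of 14 measured STAT target genes, 11 were higher in maturing HSC, where 4188 of all 8852 measured genes were. The 11 include Cebpd, whose probe sets disagreed, at -1.27 and 1.01. The list median was -1.01, or -1.78 when scaled to the hybridisation controls. At 4-fold, 2 were higher in maturing HSC, beside 4.69% of all genes, and 0 in primitive HSC, beside 3.45%. These were the guanylate-binding protein genes Gbp2 and Gbp3, known targets of interferon gamma, at least 5.31-fold and 4.70-fold higher. The interferon-induced GTPase gene Igtp was higher in maturing HSC by at least 3.70-fold, while Junb read 1595 and 574.3, a log2 ratio of 1.47 toward primitive HSC. Among further interferon gamma targets, Irf1 stood at -0.12, and Ifi47 read 5536 and 3238, a log2 ratio of 0.77 toward primitive HSC that was -0.20 when scaled to the hybridisation controls.

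Of the myeloid transcription factors, 6 of 9 were measured, with a median of -0.16 that was 0.13 with the floor at percentile 75. Spi1, which encodes PU.1, read 766.0 and 873.9, a log2 ratio of -0.19. Cebpb, a C/EBP factor of emergency granulocyte production, had a bound of -1.15 and Egr1 a ratio of -1.30, both toward maturing HSC. Runx1 stood at 0.60, or -0.38 when scaled to the hybridisation controls. Cebpa was under the floor on both arrays.

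**Figure D4:**
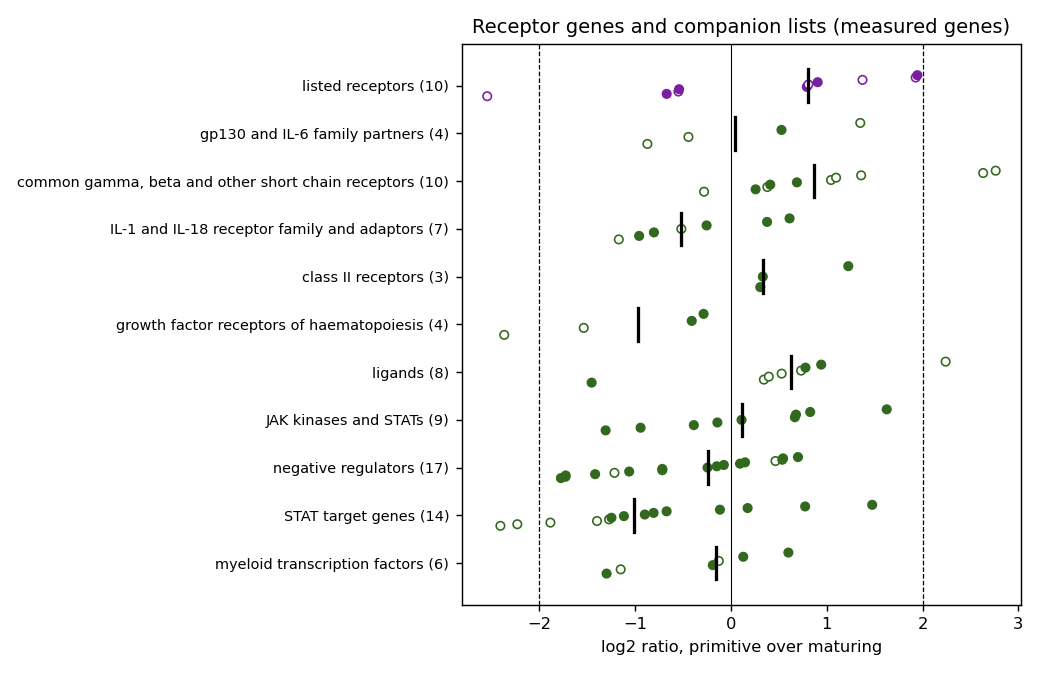
Log2 ratio of primitive over maturing for the 10 receptor genes (purple) and the measured genes of 10 lists of related genes (green), with the number of measured genes in brackets, open circles for bounds, vertical bars for list medians and dashed lines at 4-fold. The short chain receptors have their median at 0.87, and the growth factor receptors (-0.97) and STAT target genes (-1.01) have theirs on the side of maturing HSC.

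Markers of the cells were set beside these values. The stem cell surface gene Procr read 11572 on the primitive and 1895 on the maturing array, and of 9 measured stem cell genes 5 were higher in primitive and 4 in maturing HSC, with a median of 0.15 that was -0.78 when scaled to the hybridisation controls and -0.22 with the floor at percentile 75. Toward maturing HSC stood Kit (-0.41), Cd34 (-0.91), Hlf (-1.25) and Meis1, by at least 2.72-fold. Some genes of T and natural killer cells, which use the IL-18 receptor, were higher in primitive HSC as Il18r1 and Ifng were. Of 13 on the array 10 were measured, 6 of them higher in primitive HSC, where 4664 of all 8852 measured genes were. The intensities of all 13, those under the floor included, summed to 60005 on the primitive and 14074 on the maturing array. Ccl5 alone read 37798 and 1511, and Cd3d was higher in primitive HSC by at least 19.7-fold. Klrd1 (at least 4.33-fold), Gzma (at least 3.26-fold), Ncr1 (at least 2.67-fold) and Prf1 (0.87) also stood toward primitive HSC. Prf1 was -0.11 when scaled to the hybridisation controls. At 4-fold, 3 were higher in primitive HSC, beside 3.45% of all genes, and 0 in maturing HSC, beside 4.69%. Toward maturing HSC stood Nkg7 (-0.33), Gzmb (-0.65), Cd8a (at least 1.83-fold) and Tbx21 (a bound of -0.01), and Cd3e, Cd3g and Cd4 were under the floor on both arrays. The list median was 1.14, or -0.11 when scaled to the hybridisation controls. The part of such cells in the values of Il18r1, Il7r and Ifng was not tested.

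Granulocyte and monocyte genes, which mark the cells that use Csf3r, went both ways. Mpo (at least 5.87-fold), Ms4a3 (-2.66), Chil3 (-2.21), Ltf (-1.63) and Ctsg (-1.10) were higher in maturing HSC, as Csf3r was. Lcn2 (1.53), S100a8 (1.26), Ngp (1.04), Camp (0.98) and Prtn3 (0.91) were higher in primitive HSC. When scaled to the hybridisation controls, Prtn3 stood at -0.07, Camp at 0.004 and Ngp at 0.07. Of 17 genes on the array 16 were measured, 11 of them higher in primitive HSC, where 4664 of all 8852 measured genes were. At 4-fold, 0 of the 16 were higher in primitive HSC, beside 3.45% of all genes, and 3 in maturing HSC, beside 4.69%. The intensities of all 17 summed to 181798 in primitive and 107062 in maturing HSC, of which S100a8 alone gave 46747 and 19525. The list median was 0.40, or -0.22 when scaled to the hybridisation controls. Of 9 macrophage genes on the array 6 were measured, and all 6 were higher in primitive HSC. Their median was 0.98, or 0.03 when scaled to the hybridisation controls. Marco, C1qa and C1qc were under the floor on both arrays. With these included, the intensities of the 9 genes summed to 6602 in primitive and 2650 in maturing HSC. The part of granulocytes, monocytes and macrophages in the values of Csf3r, Csf1r and Il4ra was not tested.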

How the data were processed

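Affymetrix arrays of 1 primitive and 1 maturing HSC sample were used. The deposited intensities are linear MAS5 signals, per the submitters' processing notes, which name no version here, with 2% trimmed means of 1000.6 and 1000.4. Per the labels' protocols, cDNA was PCR-amplified, size-fractionated and cloned before labelling, and each step can change the share of a transcript. Detection calls were not used here.

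Both arrays were rescaled to 1 trimmed mean, and values under the pooled median of non-control probe sets (441.0) were set to it. Genes were represented by their brightest probe set; the 691 probe sets with several symbols and 1555 with none were left out. Ratios are log2 of primitive over maturing, called at 4-fold. A median under another scaling or floor covers the genes measured in that setting, which are not always those of the main setting. The number of arrays limits the precision, and no p-value is given. By rule, all 10 receptors, Csf2rb2 and up to 4 genes per list with the largest ratio or bound and agreeing probe sets were named; further list members were named after their values were seen. Members and lists were chosen with earlier results of these data known. The steps were tested on simulated data with changes of 4-fold and 8-fold and less noise than between probe sets for the same gene here. That test does not show how exact the reported ratios are. Alternatives were 5 scalings, 2 floors, 2 thresholds (2-fold and 8-fold), the median of probe sets, leaving out probe sets named as less specific (_s_at and _x_at), and leaving out Csf2rb. Python 3.11.15, numpy 2.4.6, pandas 2.3.3, statsmodels 0.14.6 and matplotlib 3.10.9 were used.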

Additional observations from a re-analysis of the deposited data

How the results depend on the processing

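Receptor genes and receptor probe sets past 4-fold were 0 higher in primitive and 1 higher in maturing HSC. The count toward primitive HSC, by gene and by probe set, became 2 after quantile normalization and 1 after lowess. It was 1 without the less specific probe sets, 1 with the floor at percentile 25 and 3 at 2-fold. In this order, 3.6%, 3.27%, 3.61%, 6.78% and 15.6% of all measured genes passed toward primitive HSC. The count toward maturing HSC became 2 with the floor at percentile 25, 0 at percentile 75 and 0 at 8-fold. Beside these stood 8.89%, 2.53% and 0.678% of all measured genes. For probe sets at 2-fold the count toward maturing HSC was 2, beside 18.5% of all measured probe sets. The median over receptor genes was 0.80 and became -0.16 with the hybridisation controls. In the order described above, the related lists held 10, 4, 7, 3, 4, 8, 9, 17, 14 and 6 measured genes, numbers that change with scaling and floor. Genes of these lists past 4-fold were 3 toward primitive and 3 toward maturing HSC, beside 3.45% and 4.69% of all measured genes. They became 6 and 9 with the floor at percentile 25, beside 6.78% and 8.89% of all measured genes. At percentile 75 they were 0 and 0, beside 3.31% and 2.53%. At 2-fold they were 10 and 20, beside 15.6% and 17.6%, and at 8-fold 0 and 0, beside 0.746% and 0.678%. Those toward maturing HSC became 15 with the hybridisation controls, beside 13.5%. Over all genes, those controls moved the share of calls toward primitive HSC from 42.4% to 6.88%. A higher floor or threshold leaves fewer values that can pass. For the scalings the cause was not tested. No paired analysis was possible because each group has 1 array, and none could be left out. Signal under or near the floor limits Il6st, Il4ra, Il18r1, Csf2ra, Csf2rb and Csf3r.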

Other observations

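Genes of B cells and of mast cells and basophils were in no comparison above. Pax5, Ebf1, Fcer1a and Hdc were under the floor on both arrays. Of 7 B cell genes on the array 5 were measured, 2 higher in primitive and 3 in maturing HSC, and Cd79b (-1.01) was the member at 2-fold. The intensities of all 7, those under the floor included, summed to 2558 in primitive and 3151 in maturing HSC. Of 5 mast cell and basophil genes 3 were measured, 1 higher in primitive and 2 in maturing HSC. Ms4a2 read 640.8 in primitive HSC and 82.9, under the floor, in maturing HSC, at least 1.45-fold higher in primitive HSC. Cpa3, a mast cell protease gene, was higher in maturing HSC by at least 2.65-fold, and the basophil protease gene Mcpt8 read 2248 in primitive and 3725 in maturing HSC.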
